A study of Mus musculus with 6 samples.

Results

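The genes described here are 38 genes of the NRF2 pathway and of the glutathione and thioredoxin systems. They were taken from a mouse gene expression table by a list of symbols, which was chosen with earlier results of these data known. Comparisons of the 38 genes with all tested genes are therefore descriptive. All 38 matched 1 Ensembl identifier each among the 55401 genes listed, and all 38 were among the 16371 genes with enough counts to be tested. By role they comprise 7 regulators, 3 genes of heme breakdown, 12 glutathione genes, 11 thioredoxin genes and 5 other antioxidant genes. RNA came from BV2, an immortalised line of mouse microglia, the resident macrophages of the brain. It was sequenced after poly(A) selection in 3 libraries of cells given lipopolysaccharide (LPS, an outer membrane component of Gram-negative bacteria) and 3 libraries of cells given Vehicle. The labels state no genetic change, dose or time and do not say that libraries came from separate cultures. The p-values therefore reflect variation among these libraries alone, which may be technical.

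NRF2, encoded by Nfe2l2, is a transcription factor whose protein is held at a low level by KEAP1, an adaptor that hands it to a CUL3 ubiquitin ligase. Oxidants and electrophiles modify KEAP1. NRF2 then accumulates, pairs with a small MAF protein and binds antioxidant response elements, where BACH1 acts as a competing repressor. Typical target genes make glutathione, reduce thioredoxin, break down heme and detoxify reactive compounds. In the glutathione system, cystine taken up by the product of Slc7a11 feeds the synthesis of the tripeptide, which glutathione peroxidases and transferases use. In the thioredoxin system, electrons pass from NADPH through thioredoxin reductase and thioredoxin to peroxiredoxins, which remove peroxides. The study asked which genes act as key regulators of microglial activation, and the comparison of LPS with Vehicle shows which transcripts of these systems differed.

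Libraries held 45969690 to 59023474 estimated counts, and Nos2, the inducible nitric oxide synthase, had 453, 566 and 519 CPM (counts per library size, scaled by TMM) with LPS and 2.50, 2.83 and 2.19 CPM with Vehicle. The 12 microglia and macrophage markers checked were all tested and summed to 1612 to 1998 CPM with LPS and 2286 to 2492 CPM with Vehicle, with 0 called higher and 5 lower. Among them P2ry12, a receptor of resting microglia, lay at 0 to 0.246 CPM with LPS and 0.694 to 0.944 CPM with Vehicle, and Tmem119 at 1.76 to 2.64 CPM with LPS and 1.85 to 2.17 CPM with Vehicle. P2ry12 was called lower, but it passed the filter on low counts through its Vehicle libraries, where it was high. It was at 0 in LPS 1 and, at 0.114 CPM, under the counting floor in LPS 2, so the size of its fall is poorly known. That floor was 0.190 to 0.237 CPM, depending on the library. Tmem119, another marker of brain microglia, was not called, at levels low but above the floor in every library. Summed markers of astrocytes reached at most 5.26 CPM with LPS and 7.53 CPM with Vehicle, and those of neurons 10.2 CPM with LPS and 9.12 CPM with Vehicle. Those of oligodendrocytes reached 6.27 CPM with LPS and 6.50 CPM with Vehicle, those of endothelium 3.94 CPM with LPS and 3.98 CPM with Vehicle, and those of fibroblasts 0.779 CPM with LPS and 0.534 CPM with Vehicle. Of the 4 markers in each of these lists, 4 of astrocytes, 3 of neurons, 2 of oligodendrocytes, 3 of endothelium and 0 of fibroblasts had enough counts to be tested, and none of those tested was called. No listed marker was at 0 in all 6 libraries. In bulk RNA, fewer cells expressing a gene and less RNA per cell cannot be told apart.

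Slc7a11, Prdx5, Maff and Hmox1 were the most strongly raised of the well-expressed genes, while Gclc, Blvra, Keap1 and Bach1 were lower with LPS. Of the 38 genes, 13 were higher, among them the barely detected Nqo1, 4 were lower and 21 were not called. A call was a p under 0.05 in the quasi-likelihood test of edgeR, adjusted by Benjamini and Hochberg's method across the 16371 genes. The same test called 23.6% of all tested genes, 12.7% higher and 10.9% lower. The median log2 fold change, LPS over Vehicle, was 0.24 for the 38 genes, with a range of -1.01 to 3.69, and -0.02 for all tested genes. The LPS and Vehicle libraries did not overlap for 21 of the 38 genes, 14 with LPS above and 7 with LPS below, against 40.8% of all tested genes. All 17 called genes were among these 21.

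With libraries scaled by total counts in place of TMM, the share of higher genes among all called genes was 42.2%, where TMM gave 53.9%. The median of all tested genes was then -0.10 and that of the 38 genes 0.16. Under that scaling 12 of the 38 genes were higher and 4 lower, Prdx6 being the call that was lost. Of the 16371 tested genes 1650 were then higher and 2258 lower, where TMM gave 2082 and 1782. When 1 library was left out, 11 to 16 of the 38 genes were higher, and the number lower was 2 without LPS 1, Vehicle 1 or Vehicle 3 and 1 without Vehicle 2. Among all tested genes these fits gave 1291 (without Vehicle 2) to 2450 (without LPS 3) higher. The number lower ran from 1053 to 2085 in the same 2 fits.

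**Figure D1:**
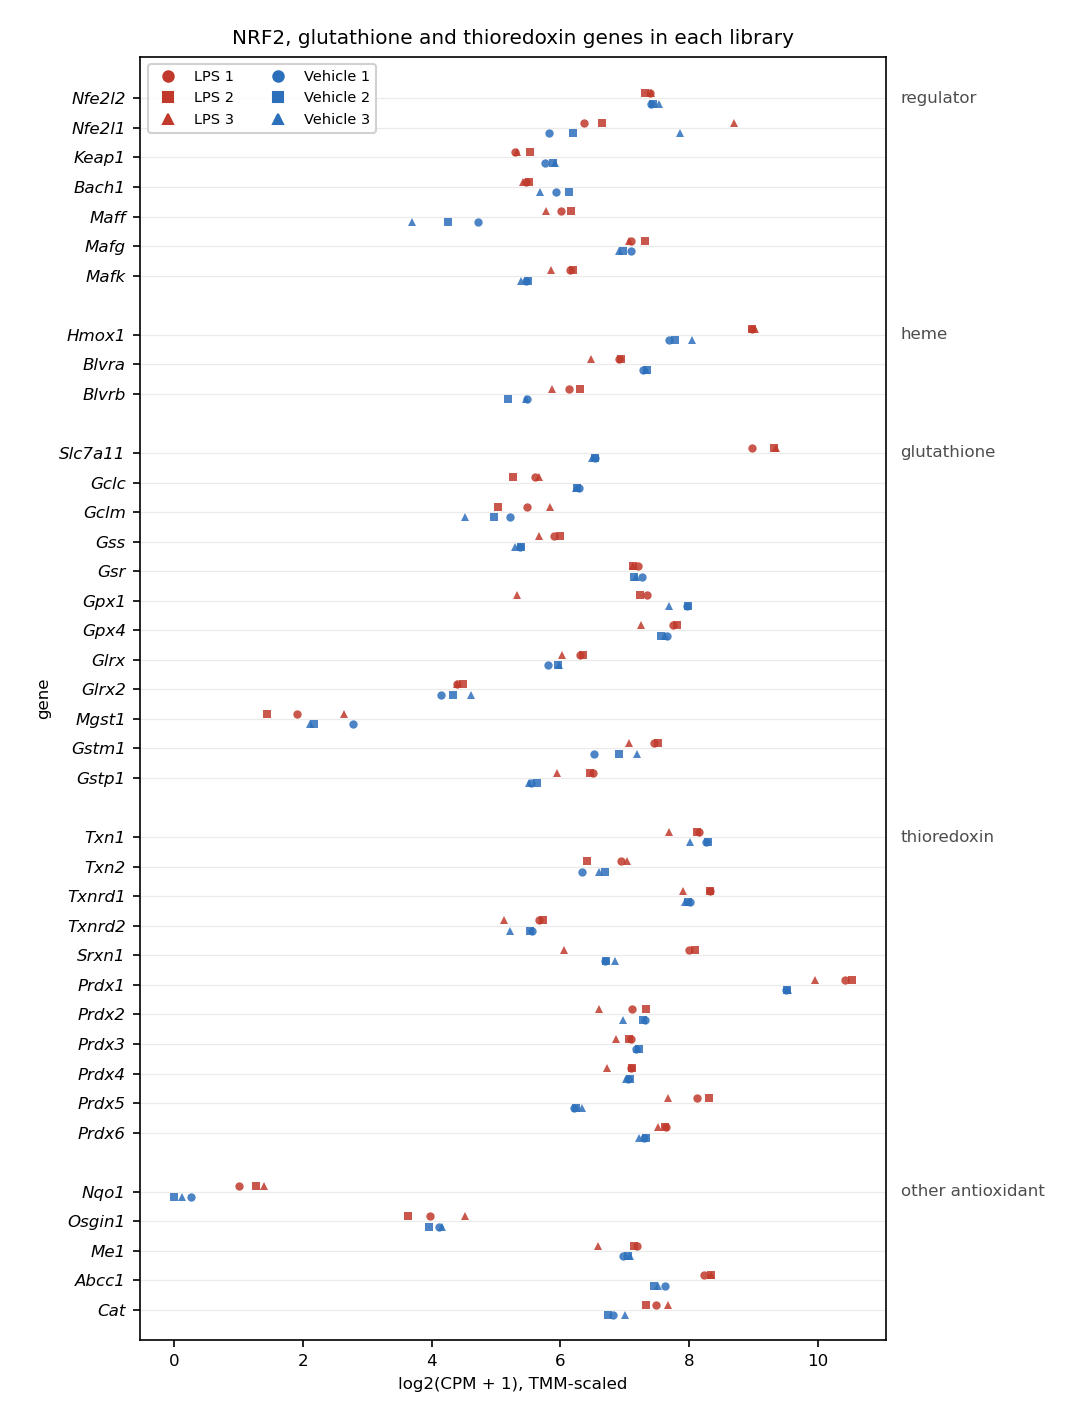
Level of each of the 38 genes in each library as log2(CPM + 1), TMM-scaled, with LPS libraries in red above Vehicle libraries in blue and marker shape giving the library number. LPS and Vehicle points stand apart for Slc7a11, Prdx5, Maff and Hmox1, and the LPS 3 triangle lies far from LPS 1 and LPS 2 for Nfe2l1, Gpx1 and Srxn1.

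Among the 7 regulators, Maff and Mafk were higher, Keap1 and Bach1 were lower, and Nfe2l2 was not called. The median log2 fold change of the regulators was 0.17, but it was 0.08 with total counts, 0.0859 without LPS 2 and -0.11 without LPS 3. Nfe2l2 itself had 166, 158 and 168 CPM with LPS and 168, 172 and 183 CPM with Vehicle. All 3 LPS libraries lay at or below the level of the lowest Vehicle library, and the log2 fold change was -0.09 ± 0.08 (SE, here and below from edgeR), with an adjusted p of 0.478 from edgeR. Transcript levels do not report the NRF2 protein, whose amount is set largely by degradation.

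Maff, which encodes a small MAF partner of NRF2, had 63.3, 70.5 and 53.8 CPM with LPS and 25.3, 18.1 and 11.9 CPM with Vehicle. Every LPS library lay above every Vehicle library, with a log2 fold change of 1.75 ± 0.25, a 3.36-fold rise (edgeR adjusted p = 0.00243). Mafk, another small MAF gene, had 70.2, 72.4 and 56.9 CPM with LPS and 43.1, 43.9 and 40.7 CPM with Vehicle. It too was higher in all LPS libraries, by 0.64 ± 0.12 on the log2 scale (edgeR adjusted p = 0.00534). The third small MAF gene, Mafg, was at 0.17 ± 0.10 and was not called (edgeR adjusted p = 0.271).

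Keap1, the adaptor that targets NRF2 for degradation, had 38.2, 45.2 and 39.0 CPM with LPS and 53.1, 58.0 and 59.1 CPM with Vehicle. The groups did not overlap, and the log2 fold change was -0.47 ± 0.11 (edgeR adjusted p = 0.0152). The call was lost without LPS 1, Vehicle 2 or Vehicle 3, with an edgeR adjusted p of up to 0.0610. Bach1, the repressor that competes with NRF2, had 43.3, 44.4 and 42.0 CPM with LPS and 60.2, 69.0 and 50.6 CPM with Vehicle. LPS libraries were closely spaced and all below Vehicle, and the log2 fold change was -0.47 ± 0.13 (edgeR adjusted p = 0.0289), but the call was lost without LPS 1, LPS 2, Vehicle 1 or Vehicle 2, with an adjusted p of up to 0.107.

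Nfe2l1, which encodes the related factor NRF1, had 81.3, 98.9 and 415 CPM with LPS and 55.5, 72.0 and 230.2 CPM with Vehicle. The third library of each group was the high one, at 4.61 times the mean of the other LPS libraries and 3.61 times the mean of the other Vehicle libraries. Its log2 fold change was 0.74 ± 0.89 and was not called (edgeR adjusted p = 0.612). It was -0.40 without LPS 3, a fit that kept the high Vehicle 3 library. Among the alternatives run, Nfe2l1 was called only in the fit that takes the replicate number into account, given at the end.

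All 3 genes of heme breakdown were called, 2 higher and 1 lower, and their median log2 fold change was 0.74. Hmox1, heme oxygenase 1, which splits heme into biliverdin, iron and carbon monoxide, had 503, 504 and 519 CPM with LPS and 206, 219 and 263 CPM with Vehicle. The LPS libraries lay within a narrow band above all Vehicle libraries. The log2 fold change was 1.15 ± 0.10, a 2.22-fold rise (edgeR adjusted p = 0.000191). The biliverdin reductase genes differed in direction. Blvrb, biliverdin reductase B, had 69.4, 77.6 and 57.3 CPM with LPS and 43.8, 35.4 and 43.2 CPM with Vehicle. It was higher in every LPS library, by 0.74 ± 0.14 on the log2 scale (edgeR adjusted p = 0.00667). Blvra, biliverdin reductase A, had 119, 122 and 87.6 CPM with LPS and 155, 162 and 159.5 CPM with Vehicle. All LPS libraries were below all Vehicle libraries, and the log2 fold change was -0.54 ± 0.13 (edgeR adjusted p = 0.0186). The call was lost without any 1 of the Vehicle libraries, with an adjusted p of up to 0.0696.

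Of the 12 glutathione genes, Slc7a11, Gss and Gstp1 were higher and Gclc was lower, and their median log2 fold change was 0.19, or 0.10 with total counts. Slc7a11, the light chain of the cystine and glutamate exchanger, had 504, 637 and 648 CPM with LPS and 91.6, 91.5 and 89.2 CPM with Vehicle. Vehicle libraries were nearly equal and LPS libraries were far above them. The log2 fold change was 2.71 ± 0.12, a 6.57-fold rise (edgeR adjusted p = 3.98e-06).

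Gclc, the catalytic subunit of glutamate-cysteine ligase, which makes the first intermediate of glutathione, had 47.9, 37.5 and 49.9 CPM with LPS and 77.0, 75.7 and 74.5 CPM with Vehicle. It was lower in every LPS library, and the log2 fold change was -0.75 ± 0.12 (edgeR adjusted p = 0.00312), a call kept under every alternative run. Gclm, the modifier subunit of the same enzyme, had 43.5, 31.6 and 56.4 CPM with LPS and 36.4, 30.1 and 21.8 CPM with Vehicle. The groups overlapped, and the log2 fold change of 0.57 ± 0.25 was not called (edgeR adjusted p = 0.153). Gss, glutathione synthetase, which completes the tripeptide, had 59.0, 62.8 and 49.8 CPM with LPS and 40.5, 41.0 and 38.4 CPM with Vehicle. All LPS libraries were above all Vehicle libraries, and the log2 fold change was 0.52 ± 0.11 (edgeR adjusted p = 0.0128), lost, among the alternatives run, only without Vehicle 3 (adjusted p = 0.0555).

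Gstp1, a glutathione transferase, had 90.1, 86.6 and 60.8 CPM with LPS and 45.5, 48.6 and 44.7 CPM with Vehicle. The groups did not overlap, and the log2 fold change was 0.78 ± 0.15 (edgeR adjusted p = 0.00735). Gstp1 has close copies, of which Gstp2 had 6.66, 8.88 and 9.56 CPM with LPS and 5.75, 4.53 and 2.24 CPM with Vehicle and was not called (edgeR adjusted p = 0.0519). Reads that fit several copies can be given to the wrong one, so values of Gstp1, the Gstm family, Prdx1, Txn1, Gpx1 and Gpx4 are uncertain to that extent.

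Gpx1, a glutathione peroxidase, had 161, 149 and 39.2 CPM with LPS and 249, 253 and 205 CPM with Vehicle. LPS 3 was far below the other libraries and the log2 fold change was -1.01 ± 0.51, not called (edgeR adjusted p = 0.223), although the groups did not overlap. Glrx, glutaredoxin, was likewise not called despite groups that did not overlap, with 0.32 ± 0.12 (edgeR adjusted p = 0.0830). The remaining genes were not called, with log2 fold changes of 0.46 ± 0.19 for the transferase Gstm1, 0.06 ± 0.15 for Glrx2, 0.01 ± 0.14 for the lipid peroxide reductase Gpx4, -0.05 ± 0.08 for glutathione reductase Gsr and -0.43 ± 0.41 for the transferase Mgst1.

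Of the 11 thioredoxin genes, Prdx1, Prdx5 and Prdx6 were higher and 0 were lower. Their median log2 fold change was 0.22, but it was 0.13 with total counts and 0.14 without LPS 1. Prdx5, a peroxiredoxin found in mitochondria and peroxisomes among other places, had 278, 317 and 203 CPM with LPS and 72.6, 74.7 and 79.6 CPM with Vehicle. Every LPS library was far above the closely spaced Vehicle libraries, with a log2 fold change of 1.81 ± 0.16, a 3.52-fold rise (edgeR adjusted p = 0.000167). Prdx1, a peroxiredoxin of the cytosol, had 1372, 1472 and 995 CPM with LPS and 728, 732 and 742 CPM with Vehicle. LPS 3 was the lowest LPS library and still above Vehicle, and the log2 fold change was 0.80 ± 0.14 (edgeR adjusted p = 0.00410). Prdx6, which reduces phospholipid peroxides and uses glutathione rather than thioredoxin, had 198, 196 and 183 CPM with LPS and 157, 159 and 149 CPM with Vehicle. The groups did not overlap, and the log2 fold change was 0.31 ± 0.08 (edgeR adjusted p = 0.0257). That call was lost with total counts (adjusted p = 0.0794) and without any library other than LPS 3 (up to 0.103).

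Srxn1, sulfiredoxin, which restores over-oxidised peroxiredoxins, had 255, 271 and 65.6 CPM with LPS and 103, 104 and 114 CPM with Vehicle. LPS 1 and LPS 2 were above every Vehicle library and LPS 3 was below every Vehicle library. The log2 fold change was 0.89 ± 0.52 and not called (edgeR adjusted p = 0.289), and was 1.296 without LPS 3 (adjusted p = 3.38e-05). Txnrd1, the cytosolic thioredoxin reductase, had 319, 320.4 and 238 CPM with LPS and 258, 252 and 244 CPM with Vehicle. LPS 3 again fell below all Vehicle libraries, and the log2 fold change of 0.22 ± 0.12 was not called (edgeR adjusted p = 0.236).

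The mitochondrial reductase Txnrd2 was at 0.08 ± 0.18 and mitochondrial thioredoxin Txn2 at 0.27 ± 0.17, while cytosolic thioredoxin Txn1 was at -0.19 ± 0.14. The peroxiredoxins Prdx2, Prdx3 and Prdx4 were at -0.15 ± 0.19, -0.19 ± 0.09 and -0.07 ± 0.12. None of these 6 was called, although the Prdx3 libraries did not overlap between groups.

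Of the 5 other antioxidant genes, Nqo1, Abcc1 and Cat were higher, and the median log2 fold change was 0.65, or 0.32 under a stricter filter that leaves Nqo1 untested. Abcc1, a transporter that exports glutathione conjugates, had 300.3, 322 and 324 CPM with LPS and 197, 174 and 181 CPM with Vehicle. It was higher in all LPS libraries, by 0.78 ± 0.09 on the log2 scale (edgeR adjusted p = 0.000476). Cat, catalase, had 179, 159 and 204 CPM with LPS and 112, 105 and 127 CPM with Vehicle. All LPS libraries were above all Vehicle libraries, and the log2 fold change was 0.65 ± 0.12 (edgeR adjusted p = 0.00505).

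Nqo1, a quinone reductase and a widely used readout of NRF2, was barely detected. It had 1.00, 1.40 and 1.64 CPM with LPS, from 50, 74 and 80 estimated counts, and 0.198, 0 and 0.0844 CPM with Vehicle, from 12, 0 and 4 estimated counts. All LPS libraries exceeded the floor of 3 counting steps (11.01 to 11.52 estimated counts a library, counting error only), while Vehicle 2 and Vehicle 3 were under it. The fitted log2 fold change was 3.69 ± 0.67 (edgeR adjusted p = 0.00273). Over the alternatives it ran from 3.16, without Vehicle 2, to 4.93, without Vehicle 1, and Nqo1 was called in the 13 that tested it. In the main test Nqo1 passed the filter on low counts through its LPS libraries, where it was high, and a stricter filter left it untested. The size of its rise is therefore poorly known. Malic enzyme Me1, at -0.04 ± 0.15, and Osgin1, an oxidative stress response gene at 0.00 ± 0.23, were not called.

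**Figure D2:**
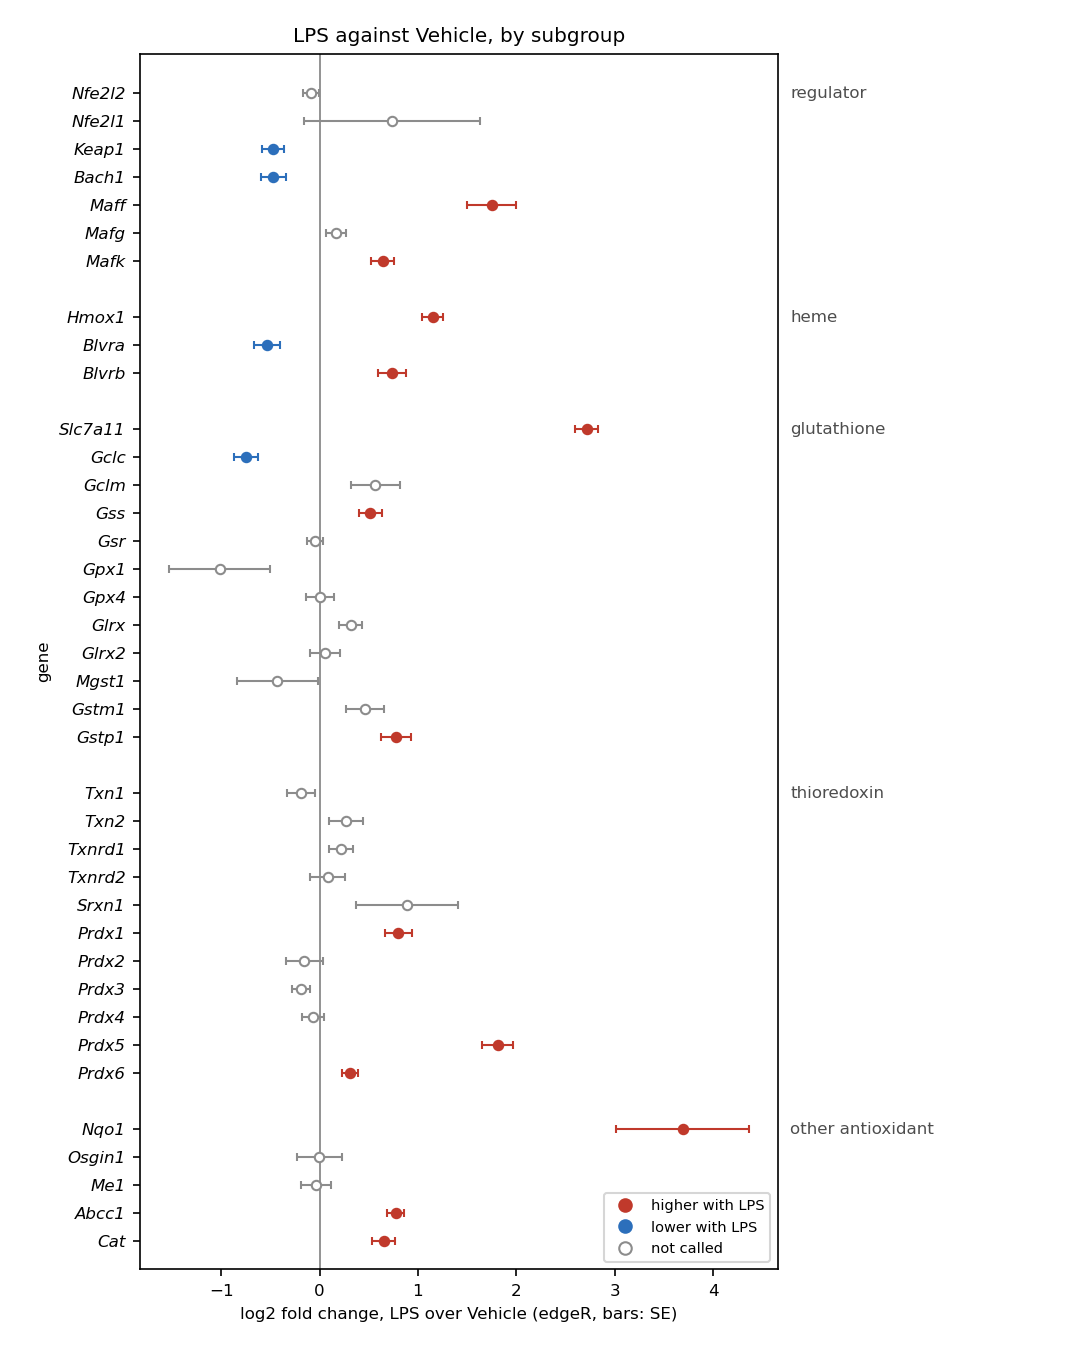
Log2 fold change, LPS over Vehicle, of the 38 genes by role, from edgeR with bars of 1 SE; filled red points were called higher, filled blue points lower and open grey points were not called. Points run from -1.01 for Gpx1, not called, to 3.69 for Nqo1, and the widest bar is that of Nfe2l1 (SE 0.89).

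LPS 3 was the lowest LPS library for 24 of the 38 genes (63.2%), against 37.7% of all tested genes. The median ratio of LPS 3 to the mean of LPS 1 and LPS 2 was 0.841 for the 38 genes and 1.00 for all tested genes. Of the 11 thioredoxin genes 10 were below that mean in LPS 3, with a median ratio of 0.730, while 1 of the 5 other antioxidant genes was. Of the glutathione genes 8 of 12 were below it, of the regulators 5 of 7 and of the heme genes 2 of 3. Vehicle 3 was likewise below the mean of Vehicle 1 and Vehicle 2 for 8 of 12 glutathione genes, 7 of 11 thioredoxin genes and 4 of 7 regulators. For the heme genes the number was 0 of 3 and for the other antioxidant genes 2 of 5. Vehicle 3 was the lowest Vehicle library for 17 of the 38 genes (44.7%), against 35.4% of all tested genes. The ratio of LPS 3 to the mean of LPS 1 and LPS 2 was 0.253 for Gpx1 and 0.250 for Srxn1. It was 4.61 for Nfe2l1 and 2.34 for Mgst1, a gene under 6 CPM in every library. Such large departures were no more common here than among all tested genes. LPS 3 was more than 2-fold below that mean for 2 of the 38 genes (5.26%) and 6.54% of all tested genes. It was more than 2-fold above it for 2 of the 38 (5.26%) and 8.18% of all tested genes.

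Without LPS 3, 16 of the 38 genes were higher and 5 lower, and all 17 calls made with 6 libraries remained. Calls also rose among all tested genes, to 4535 of 17169 (2450 higher and 2085 lower). With 6 libraries they were 3864 of 16371 (2082 higher and 1782 lower). The 4 added were Srxn1, Txnrd1 at 0.34 (edgeR adjusted p = 0.00738), Glrx at 0.41 (adjusted p = 0.0148) and Gpx1, lower at -0.61 (adjusted p = 0.00504). The thioredoxin genes then had 5 higher. What sets LPS 3 apart was not tested.

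**Figure D3:**
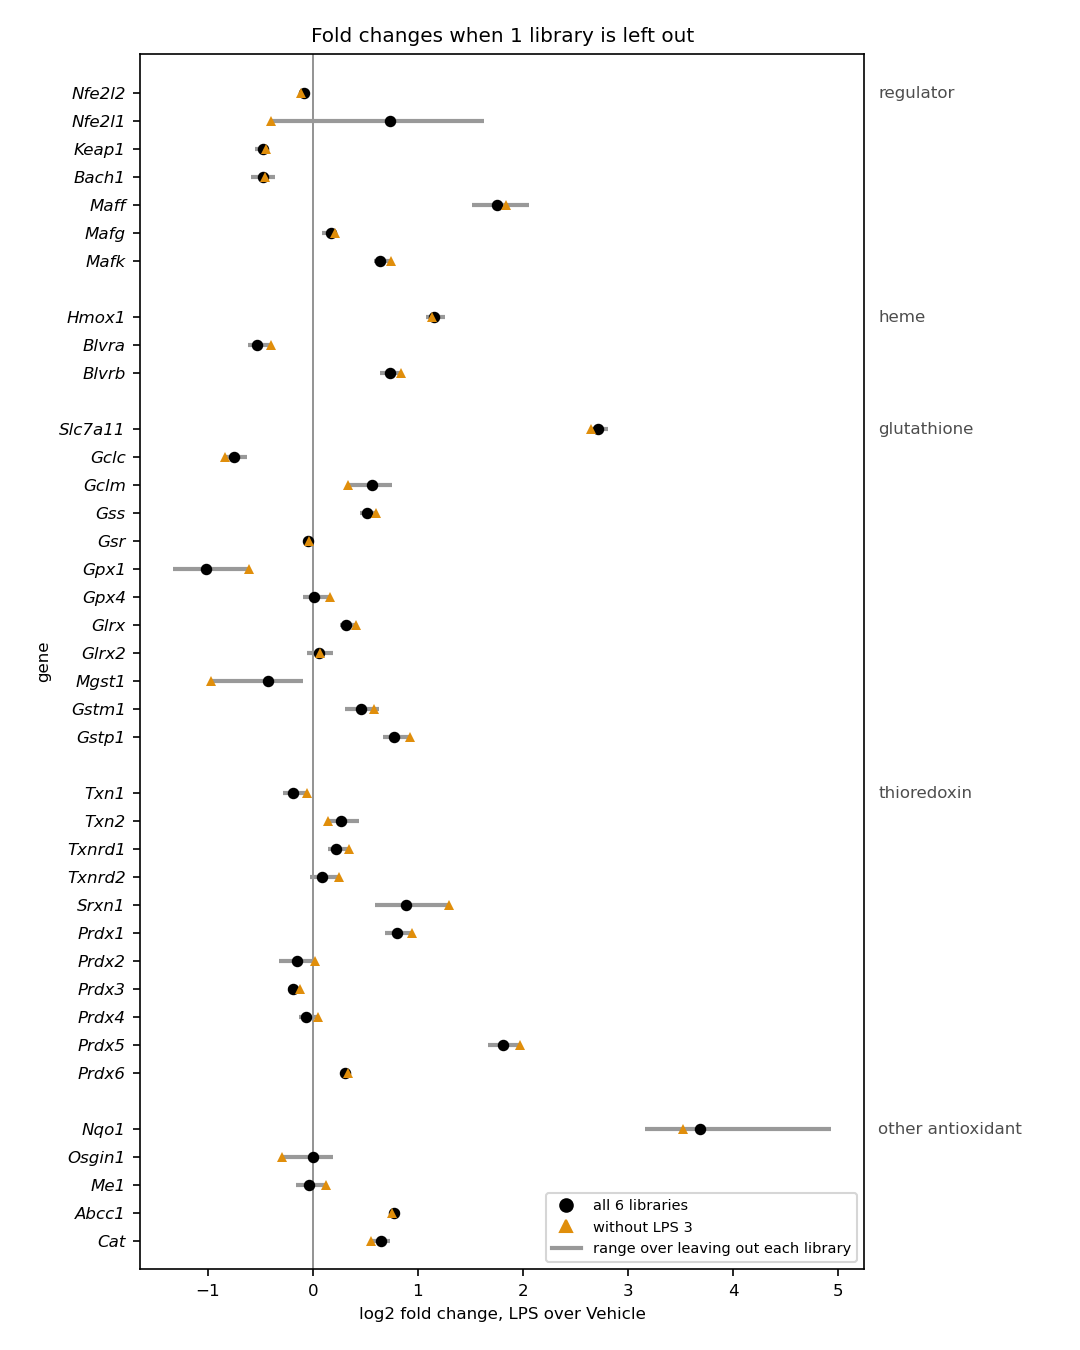
Log2 fold change, LPS over Vehicle, of each gene with all 6 libraries (black points), without LPS 3 (orange triangles) and over leaving out each library in turn (grey lines from lowest to highest value). The line of Nfe2l1 crosses 0 (-0.40 to 1.63), while those of Slc7a11, Hmox1 and Abcc1 are short.

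TPM scales counts by gene length so that levels of different genes can be compared. The length used was that of the longest annotated transcript, and ranks and sums depend on that choice. Prdx1 was the most abundant of the 38 genes in both groups, at 1161 ± 165 TPM with LPS and 754 ± 9.81 TPM with Vehicle (SD, n = 3). Hmox1 held rank 2 with LPS, at 681 ± 53.7 TPM, and rank 5 with Vehicle, at 344 ± 44.9 TPM. Txn1 held rank 3 with LPS, at 506 ± 61.4 TPM, and rank 2 with Vehicle, at 653 ± 69.7 TPM. Prdx5 was at rank 5 with LPS and rank 18 with Vehicle, with 303 ± 49.4 TPM with LPS and 97.7 ± 4.70 TPM with Vehicle. Slc7a11 was at rank 18 with LPS (136 ± 22.9 TPM) and rank 32 with Vehicle (23.2 ± 0.44 TPM), and Nqo1 was the lowest in both groups, at 1.83 ± 0.52 TPM with LPS and 0.14 ± 0.15 TPM with Vehicle. Neighbours in this order can lie within their spread, as Gpx1 and Gpx4 did with Vehicle (518 ± 60.3 and 462 ± 11.1 TPM at ranks 3 and 4). With LPS, Gpx1 was at 223 ± 123 TPM and rank 8, and Gpx4 at 410 ± 60.5 TPM and rank 4.

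Summed TPM was 932 ± 26.7 with LPS and 665 ± 48.6 with Vehicle for the heme genes, and 3193 ± 404 with LPS and 2791 ± 110 with Vehicle for the thioredoxin genes (SD, n = 3). It was 1478 ± 208 with LPS and 1627 ± 36.3 with Vehicle for the glutathione genes, and the thioredoxin and glutathione differences were both within the LPS spread. In LPS 3 the thioredoxin sum lay below those of Vehicle 1 and Vehicle 2. The regulators summed to 443 ± 98.2 TPM with LPS and 403 ± 42.4 TPM with Vehicle, again within the LPS spread, and the other antioxidant genes to 340 ± 28.6 TPM with LPS and 277 ± 12.3 TPM with Vehicle. The most abundant genes weigh most in these sums.

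Ratios of TPM within a library, for pairs chosen after their values were seen and given without a test, compare each pair's genes directly. Gclc over Gclm was 1.80, 1.93 and 1.44 with LPS and 3.46, 4.10 and 5.58 with Vehicle. Slc7a11 over Slc3a2, the heavy chain of the same exchanger, was 0.264, 0.304 and 0.335 with LPS and 0.0986, 0.0983 and 0.0827 with Vehicle. Blvra over Blvrb was 1.77, 1.62 and 1.57 with LPS and 3.66, 4.72 and 3.81 with Vehicle. For each of these pairs the LPS libraries did not overlap the Vehicle libraries. Prdx5 over Prdx1 was 0.255, 0.270 and 0.256 with LPS and 0.125, 0.128 and 0.135 with Vehicle, nearly the same in all 3 LPS libraries although LPS 3 was lower in both genes. Txn1 over Txnrd1 was 3.07, 2.97 and 2.97 with LPS and 4.10, 4.25 and 3.62 with Vehicle, again without overlap.

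The promoters of Slc7a11, the well-expressed gene with the largest rise, Prdx1, the most abundant gene, and Srxn1, whose libraries spread most among the thioredoxin genes, are shown from RefSeq (build GRCm38.p6), each from 250 bases before to 50 bases after the start, read along the gene's own strand, with motif matches in capitals. The Slc7a11 window is chr3:50443564-50443863, minus strand, the Prdx1 window chr4:116685349-116685648, plus strand, and the Srxn1 window chr2:152105274-152105573, plus strand.
Slc7a11: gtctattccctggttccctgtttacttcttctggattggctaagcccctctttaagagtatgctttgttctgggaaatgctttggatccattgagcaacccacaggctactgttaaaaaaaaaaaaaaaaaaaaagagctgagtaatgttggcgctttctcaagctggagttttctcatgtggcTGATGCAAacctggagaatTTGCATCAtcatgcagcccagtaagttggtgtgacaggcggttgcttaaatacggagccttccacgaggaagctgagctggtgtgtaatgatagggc
Prdx1: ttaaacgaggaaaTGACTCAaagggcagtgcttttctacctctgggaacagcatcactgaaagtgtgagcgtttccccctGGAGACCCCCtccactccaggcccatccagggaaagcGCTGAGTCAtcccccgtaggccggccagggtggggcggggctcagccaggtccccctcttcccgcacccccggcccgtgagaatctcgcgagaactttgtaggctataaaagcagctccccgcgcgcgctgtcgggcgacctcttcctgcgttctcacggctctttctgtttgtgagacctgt
Srxn1: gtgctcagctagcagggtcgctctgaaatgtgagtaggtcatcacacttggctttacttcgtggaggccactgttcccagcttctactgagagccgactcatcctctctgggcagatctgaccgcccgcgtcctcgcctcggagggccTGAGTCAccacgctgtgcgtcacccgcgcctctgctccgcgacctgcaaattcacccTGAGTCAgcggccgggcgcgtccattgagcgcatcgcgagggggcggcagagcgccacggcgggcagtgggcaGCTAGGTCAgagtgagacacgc

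The motifs were an antioxidant response element (ARE) core, TGACNNNGC, the site of AP-1, a FOS and JUN dimer, TGANTCA, an amino acid response element (AARE), which ATF4 can bind, TGATGNAA, and the kB motif of NF-kB, each searched on both strands. Slc7a11 held the AARE at 66 to 59 bases before the start and again, on the other strand, at 47 to 40 bases before it. Prdx1 held an ARE at 133 to 125 bases before the start that overlaps an AP-1 match at 131 to 125, a second AP-1 match at 237 to 231 and a kB match at 170 to 161. Srxn1 held an ARE at 29 to 37 bases after the start and AP-1 matches at 102 to 96 and 45 to 39 bases before it.

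Over the 32851 windows of this length, 12.4% held the ARE core, 7.81% AP-1, 3.97% the AARE and 8.46% kB. Of the 38 genes 33 had a window, 52 windows in all since some genes have several, and 11 of the 52 windows, each of a different gene, held the ARE core. Of the 52, 7 held AP-1, 1 the AARE and 4 kB. By gene and call, which is not the scale of the share of windows, the ARE core was found in 3 of 10 genes higher with LPS, 1 of 3 lower and 7 of 20 not called. Hmox1, Gclc, Gsr, Prdx6 and Abcc1 had no window. A match describes letters in these windows and does not show binding.

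The rest of the pathway was described by 78 other listed genes, of which 77 matched 1 identifier and 65 were tested. Among the 65, LPS libraries gave 15 higher and 7 lower calls, against 12.7% higher and 10.9% lower among all tested genes, and a median log2 fold change of 0.07. With total counts 13 were higher and 11 lower. Sqstm1, the autophagy receptor p62, which sequesters KEAP1, had 3351, 3963 and 2606 CPM with LPS and 532, 463 and 498 CPM with Vehicle. It was higher in every LPS library, by 2.73 ± 0.16 on the log2 scale (edgeR adjusted p = 1.87e-05). Alas1, the first enzyme of heme synthesis, had 229, 266 and 275 CPM with LPS and 70.6, 81.5 and 84.3 CPM with Vehicle. Its log2 fold change was 1.70 ± 0.11 (edgeR adjusted p = 3.45e-05). Chac1, which degrades glutathione, had 21.1, 24.3 and 23.3 CPM with LPS and 6.21, 6.32 and 4.43 CPM with Vehicle. Its log2 fold change was 2.01 ± 0.17 (edgeR adjusted p = 0.000132), and for all 3 genes the libraries of both groups stood apart.

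Slc3a2 rose by 1.01 ± 0.09 on the log2 scale (edgeR adjusted p = 0.000196), with 581, 638 and 591 CPM with LPS and 283, 284 and 329 CPM with Vehicle. Sesn2, a stress gene, rose by 0.97 ± 0.09, the transferase Gstm2 by 1.05 ± 0.13, Btrc, an adaptor of another ubiquitin ligase for NRF2, by 0.84 ± 0.14, Gstt3 by 0.85 ± 0.19 and Esd by 0.79 ± 0.14. Lower were Msrb2, a methionine sulfoxide reductase, at -0.86 ± 0.23, Mgst3 at -0.83 ± 0.18 and the NADPH-producing dehydrogenase Idh1 at -0.75 ± 0.10. The Msrb2 call was lost without LPS 2 or any Vehicle library (edgeR adjusted p up to 0.0979), and the Gstt3 call without Vehicle 1 (0.0544).

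By role, 6 of the 24 other glutathione genes tested were higher and 1 lower, and 3 of the 14 other thioredoxin genes were higher and 4 lower. The NRF2 degradation group had 2 of 6 higher and the heme and ferritin group 2 of 8, with 0 lower in each. NADPH supply had 1 of 6 higher and 1 lower, and other targets 1 of 7 higher and 1 lower. Fth1, the ferritin heavy chain, was at 0.77 ± 0.28 and not called (edgeR adjusted p = 0.107), although its groups did not overlap. It had 9152, 17019 and 8070 CPM with LPS and 6788, 6287 and 7064 CPM with Vehicle.

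**Figure D4:**
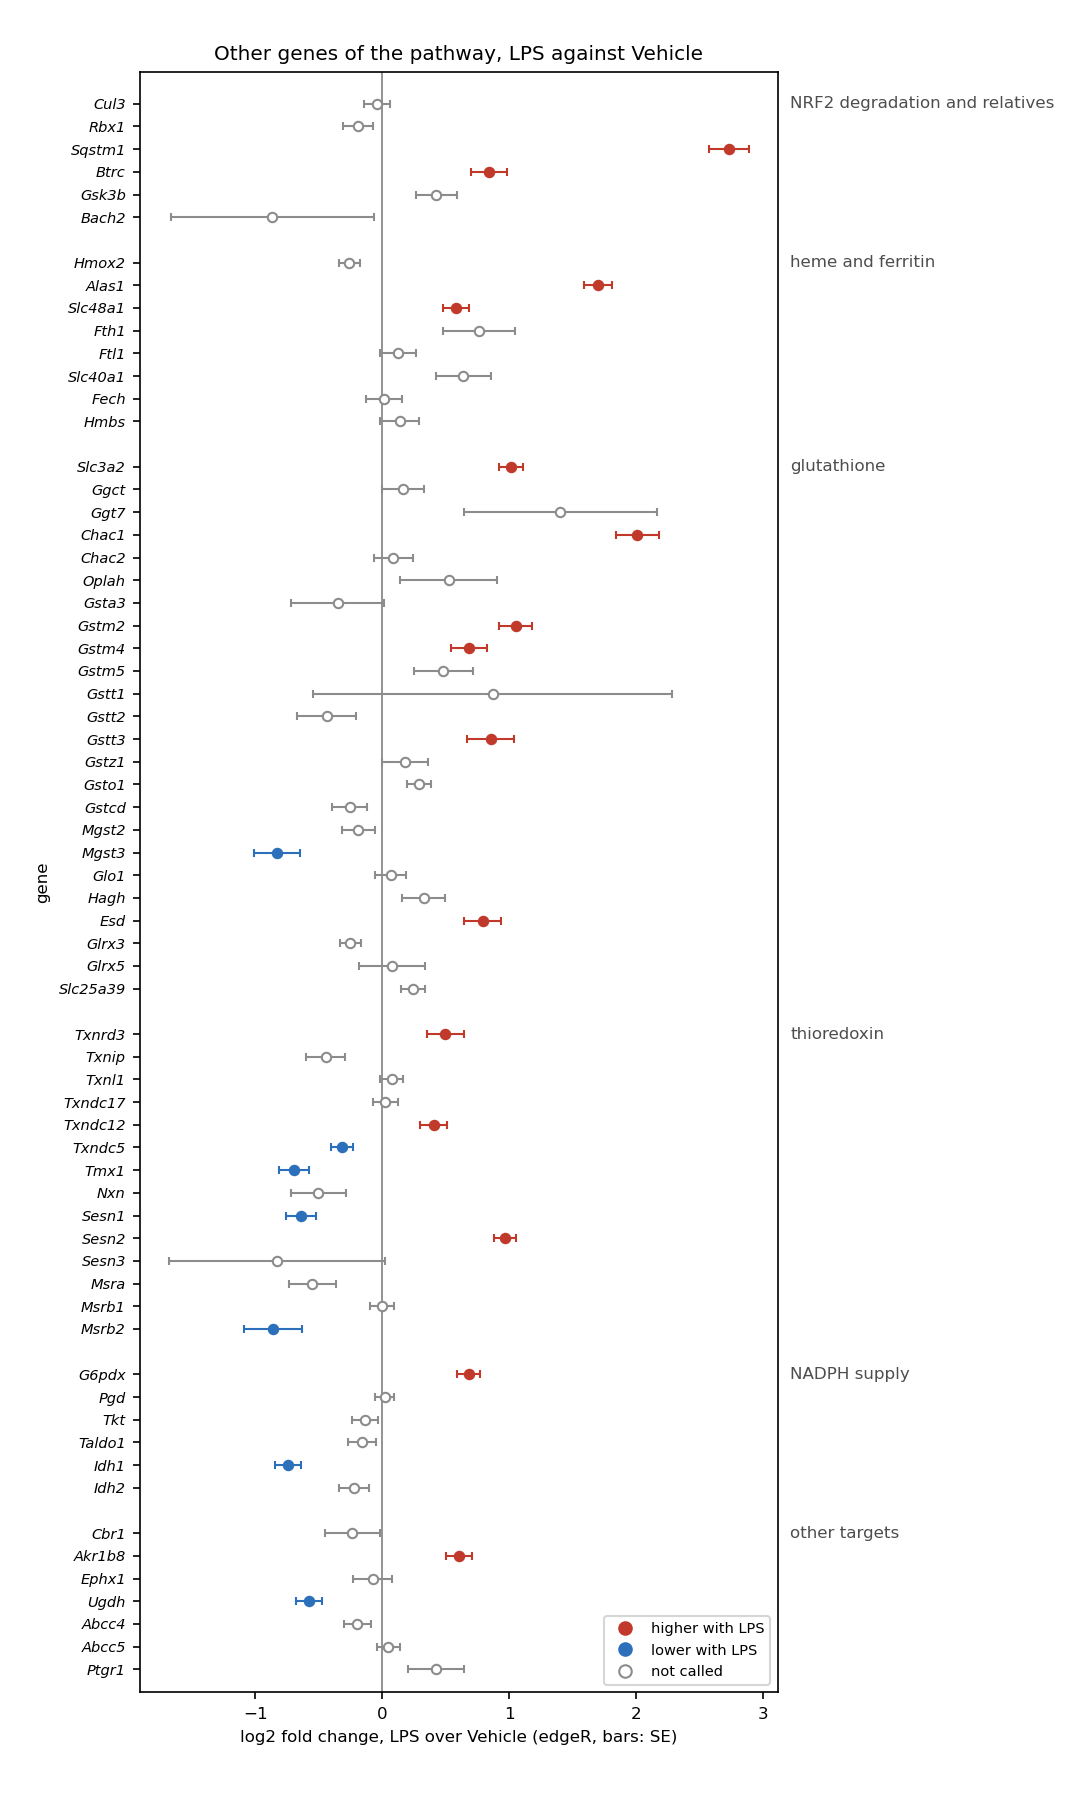
Log2 fold change, LPS over Vehicle, of the other tested pathway genes by role, from edgeR with bars of 1 SE, coloured by call. Sqstm1 (2.73), Chac1 (2.01) and Alas1 (1.70) lie farthest to the right among the called genes.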

How the data were processed

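RNA of BV2 cells was enriched with oligo(dT) beads, prepared with a NEBNext Ultra kit not stated to mark strand, and sequenced on a NovaSeq instrument, per the labels' protocols. The submitters' processing notes name Bowtie2 2.2.8, HISAT2, StringTie 1.3.1 and DESeq2 with no role; genome build: not given in the sources used here. Expected counts (an estimate per gene and library) are what the authors deposited. All were whole already, and low values recur every 3.67 to 3.84 counts, depending on the library, so they do not number reads. All columns were mapped by name and 0 were left unmapped.

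Symbols and longest transcript lengths came from a mouse annotation (GENCODE vM21) by identifier. filterByExpr kept genes (minimum count 10, minimum total 15), which were scaled by TMM and tested two-sided with edgeR 4.0.16 (R 4.3.3), quasi-likelihood with robust dispersions, Benjamini-Hochberg adjusted over all tested genes at 0.05. SE is the log2 fold change over the square root of F. TPM used those lengths. Library totals, 45969690 to 59023474, bound the precision; floors cover counting error alone, since PCR copies without molecular identifiers cannot be told from separate molecules. Alternatives were the size factors of DESeq2 1.42.0, its Wald test, total counts, no and a stricter filter (over 1 CPM), a replicate block, values divided by their step, leaving out each library and, chosen after seeing the data, edgeR's test as before version 4. The procedure was tested on simulated data. Figures were drawn with matplotlib 3.10.9.

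The members, the other lists and the promoter motifs were chosen with earlier results of these data known. Values per library are given for called members whose groups do not overlap and for 11 set genes. Of the other pathway genes, up to 12 called with the largest change and a mean of at least 1 CPM are named. Fth1, which was not called, is named in addition. Nnt matched 2 identifiers and was left out.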

Additional observations from a re-analysis of the deposited data

How the results depend on the processing

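Of the 17 called genes, 12 were called under every alternative that tested them, 11 of them higher and Gclc lower; the other 5 (Keap1, Bach1, Blvra, Gss and Prdx6) lost the call at least once. With total counts, 11 of the other pathway genes were lower, against 7, and log2 fold changes had a median of 0.0797 for the regulators and 0.099 for the glutathione genes. The stricter filter left Nqo1 untested and the other antioxidant genes at a median of 0.32. When 1 library was left out, 2344 (without Vehicle 2) to 4535 (without LPS 3) genes were called, against 3864, the 38 genes had 1 to 5 lower, and the median of the regulators ran from -0.11 (without LPS 3) to 0.22.

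These genes, none of them called, changed sign. Gpx4 was at -0.0032 with the size factors of DESeq2, -0.0829 with total counts, -0.0019 with the stricter filter, -0.001 with the DESeq2 Wald test, -0.01 with the block and -0.10 to 0.16 without 1 library. With total counts Glrx2 was at -0.0302 and Txnrd2 at -0.0086, and with edgeR's earlier test Osgin1 was at 0.002. Without 1 library the range was -0.0545 to 0.19 for Glrx2, -0.0296 to 0.25 for Txnrd2, -0.30 to 0.19 for Osgin1, -0.40 to 1.63 for Nfe2l1, -0.32 to 0.0213 for Prdx2, -0.13 to 0.0472 for Prdx4 and -0.16 to 0.13 for Me1. The cause was not tested.

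With the replicate number as a block, edgeR called 3816 genes, and 14 of the 38 genes were higher and 4 lower, Nfe2l1 being added (0.63, adjusted p = 0.00802). Deviations of same-numbered libraries correlated weakly, at 0.0734, 0.0453 and 0.0581, but each was the best match of its library. The labels do not say that a shared number marks a pair, and whether it does was not tested. Depth limits Nqo1, whose Vehicle counts lie near or under the floor.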
